A study of Arabidopsis thaliana with 14 samples.

Results

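A set of 91 probe sets whose signals stepped up from 0 h to 3 h and again from 3 h to 12 h in untreated Arabidopsis seedlings was followed into seedlings given either of a pair of code-named chemicals. The 91 were chosen by the signals of the 6 untreated arrays, out of the 22746 probe sets of the ATH1 array that are not controls. A probe set entered when its mean signal was at least 1.5 times as high at 3 h as at 0 h and at least 1.5 times as high at 12 h as at 3 h. Its 12 h mean also had to reach 168, and both arrays of each later time had to lie above both of the earlier time. The rise in untreated seedlings is therefore the selection itself and carries no test. GI and AT4G33980, a pair of clock-linked genes, were to be left out by name, but neither met the thresholds: the means of GI changed 3.43-fold and then 0.353-fold, and those of AT4G33980 changed 1.16-fold and then 15.3-fold.

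The 14 arrays fall into 7 groups of 2, all of wild-type Col-0 seedlings on day 6 after germination. All grew at 22 °C in long days, with 16 h of light in each day, on MS agar and were moved to MS solution 1 day before the experiment. The groups are untreated seedlings at 0 h, 3 h and 12 h, seedlings with 50 µM of compound 7606596 at 3 h and 12 h, and seedlings with 50 µM of compound 5929745 at 3 h and 12 h. The series title calls the chemical albino, and the labels give the compounds only by these numbers. The labels do not say whether untreated seedlings received the compounds' solvent, at what hour of the day each time point fell, or whether the arrays of a group came from separate cultures. Age, time in solution, time after treatment and time of day therefore cannot be told apart, and p-values measure only the spread between these arrays, which may be technical. Whole seedlings were pooled, so a smaller share of cells of a type and less RNA per cell cannot be told apart either.

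The array annotation names a single gene for 44 of the 91 members, gives several for 3 and names none here for the other 44, which appear only by probe set ID. All 91 passed the filter on low signals (a mean over the 14 arrays of at least 42.3), and 78 were at or above that level on every array. Members that passed this filter did so partly through the 12 h arrays that chose them, but the mean over the 8 treated arrays alone also reached that level for all 91. Markers of shoot and root were present in the RNA. RCA, the activase of the carbon-fixing enzyme Rubisco in green tissue, was at 19188 or more on every array, and PYK10, a root beta-glucosidase, at 10975 or more. The annotation named 2 of 12 green tissue markers and 4 of 10 root markers.

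The arrays also differ in their controls. Poly-A spike-ins are bacterial transcripts put into each RNA sample before it is labelled. The mean log2 signal of their 24 probe sets was 6.78 to 6.89 on the 4 arrays of untreated seedlings at 3 h or 12 h. It was 5.54 to 5.84 on the 2 arrays of 0 h and the 8 treated arrays. The 25S ribosomal RNA probe set was at 184 to 277 on those 4 untreated arrays and at 290 to 850 on the other 10. This split runs along the untreated step from 0 h to 3 h, which helped to choose the members, and its part in that step was not tested. The untreated arrays of 3 h and 12 h lie on the same side of it. The hybridization controls, 18 probe sets, differed along both untreated steps. Their mean log2 signal was 11.23 and 11.21 at 0 h, 11.01 and 10.98 at 3 h, and 10.48 and 10.54 at 12 h. On the 8 treated arrays it was 10.83 to 10.99. The part of this shift in either step was not tested. The tests of members below are between treated arrays, whose poly-A signals lay within 5.54 to 5.84. Calls between untreated arrays are given for other genes only, as context, and those between 0 h and 3 h cross the split.

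A plant's transcripts change over the hours of a day because of light, the circadian clock, sugar supply and growth. Among genes with known daily patterns are those for starch turnover: leaves store starch by day and break it down at night, and DPE1 encodes the plastid disproportionating enzyme of that breakdown. Growing tissue also makes ribosomes, which takes assembly proteins and RNA-modifying enzymes. The named members are a mixed group: transporters, small stress-related proteins, cell wall and lipid proteins, enzymes of plastids and mitochondria, and proteins that make or process RNA.

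In untreated seedlings the members more than tripled at the median. The 3 h mean was 1.501 to 6.36 times the 0 h mean (median 1.80), the 12 h mean was 1.51 to 14.3 times the 3 h mean (median 1.998), and the 12 h mean was 2.29 to 37.3 times the 0 h mean (median 3.80). The larger step came between 3 h and 12 h in 55 members and between 0 h and 3 h in 36. Across all probe sets tested, 12.1% were called in either direction between 0 h and 3 h and 34.2% between 3 h and 12 h; these are given as background only, since those contrasts chose the members. The median member signal was 139 and 124 on the 0 h arrays, 242 and 266 at 3 h, and 710 and 672 at 12 h.

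**Figure D1:**
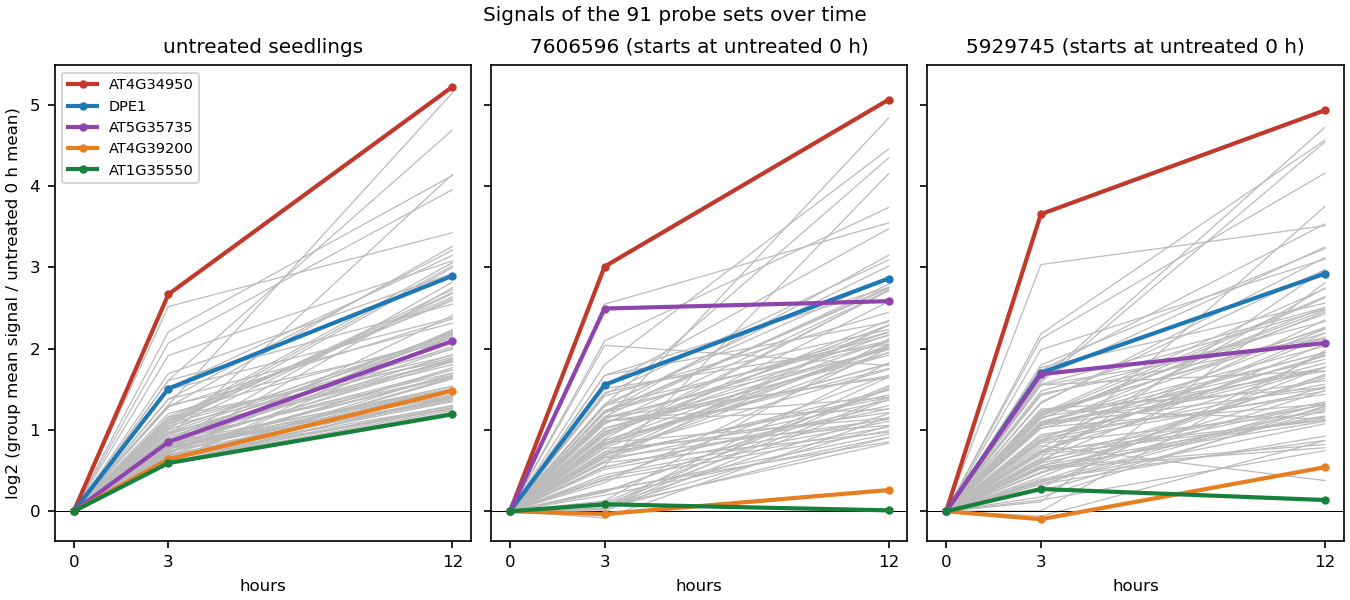
Group mean signal of each of the 91 members over its untreated 0 h mean (log2) against hours, in untreated seedlings and with 7606596 or 5929745; grey lines are members, 5 are coloured and named, and the treated panels start at the untreated 0 h mean. The median of the mean signals runs from 122.7 through 249.7 to 673 in untreated seedlings, from 224.8 to 578 with 7606596 and from 255.5 to 620.9 with 5929745.

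Close to the thresholds the choice is narrow. AT5G53880 and 264452_at were just inside the first step, at 1.501-fold and 1.502-fold, while 256547_at (1.497-fold) and AT5G27280 (1.496-fold) were just outside. For the second step AT1G77600 and 255232_at were just inside at 1.51-fold each, and 246281_at (1.499-fold) and 248267_at (1.497-fold) just outside. For the 12 h mean, 246850_at (173.3) and 253253_at (173.5) were just inside, and AT2G04050 (160.2) and 257207_at (155.2) just outside.

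Most members were also higher at 12 h than at 3 h in treated seedlings, which the rule did not use. With 7606596, 75 of the 91 rose, 0 fell and 16 were not called (limma, adjusted p under 0.05 over 15922 probe sets). That is 82.4% of the members, where 14% of all probe sets tested rose and 12.4% fell. With 5929745, 74 rose, 0 fell and 17 were not called, or 81.3% of the members against 13.8% of all probe sets rising and 11.5% falling. This fit took its spread from all 14 arrays, which include the untreated ones that chose the members. In a fit of the 8 treated arrays alone, 78 members rose with 7606596 and 76 with 5929745. The median log2 change of the members was 1.01 with 7606596 and 0.91 with 5929745, against 0.02 and 0.01 over all probe sets tested. The members ranged from -0.24 to 3.68 with 7606596 and from -0.33 to 3.10 with 5929745.

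A called rise of at least 2-fold was found in 46 members with 7606596 (50.5%, against 2.55% of all probe sets) and in 37 with 5929745 (40.7%, against 2.33%). Both 12 h arrays lay above both 3 h arrays in 86 members with 7606596 (94.5%, against 33.4% of all probe sets) and in 83 with 5929745 (91.2%, against 31.7%). With both compounds 68 members rose, 7 were called with 7606596 alone, 6 with 5929745 alone and 10 with neither. The same split over all probe sets is not given here, only the shares called higher with each compound, 14% and 13.8%. The median member signal on the treated arrays was 221 to 244 at 3 h and 519 to 641 at 12 h. No treated array was collected at 0 h, so the first step has no counterpart in treated seedlings.

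Other signals moved over the same treated hours. The 25S ribosomal RNA probe set went from 531 and 466 at 3 h to 409 and 320 at 12 h with 7606596, and from 850 and 760 to 290 and 338 with 5929745. The summed signal of the 2 green tissue markers was lower at 12 h with each compound, going from 60263 and 66942 to 38551 and 39430 with 7606596 and from 59052 and 62299 to 41376 and 43280 with 5929745. The sum of the 4 root markers, most of it PYK10, overlapped between the times, at 14228 to 16781 and then 13428 to 14715 with 7606596 and at 13120 to 15294 and then 12438 to 15458 with 5929745. The root peroxidase genes AT4G30170 and AT5G17820 were lower at 12 h: AT4G30170 went from 953 and 928 to 307 and 408 with 7606596 and from 1372 and 1398 to 475 and 538 with 5929745. AT5G17820 went from 392.3 and 446 to 189 and 166 and from 454 and 492 to 216 and 313. The root marker AT1G33700 was also lower at 12 h, going from 156 and 140 to 117 and 115 with 7606596. With 5929745 it went from 318 and 208 to 155 and 121. None of these 6 markers was at 0, and the part of these shifts in the members' rise was not tested.

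**Figure D2:**
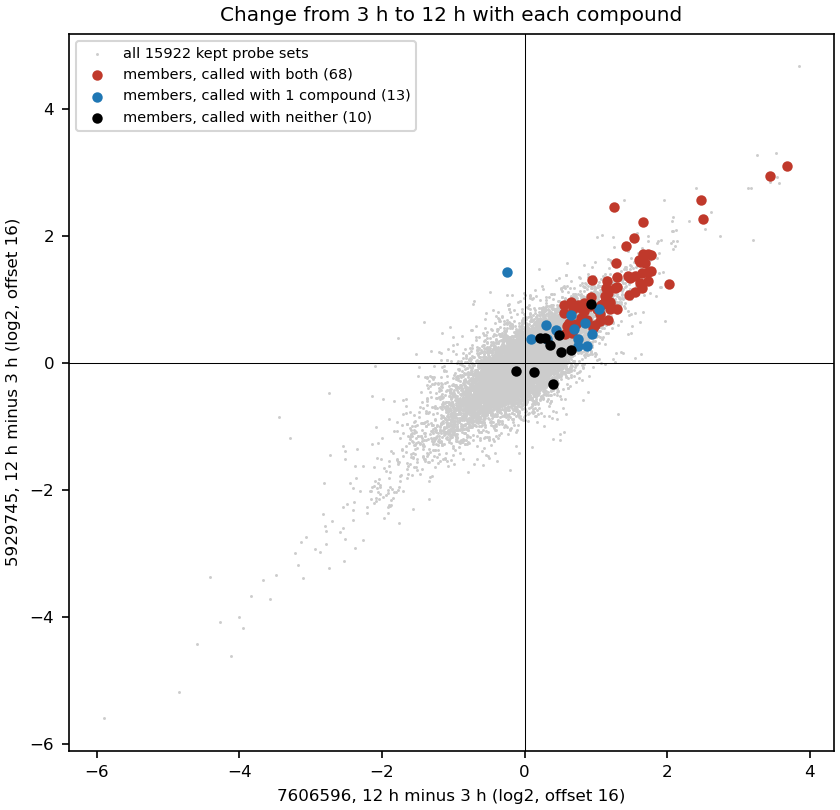
Log2 change from 3 h to 12 h of each member with 7606596 (x axis) and with 5929745 (y axis), coloured by whether it was called with both compounds, 1 of them or neither, over all 15922 probe sets tested in grey. Of the 91 members, 68 were called higher with both compounds and 10 with neither, and 0 were called lower. Of all probe sets tested, 14% were called higher with 7606596 and 13.8% with 5929745.

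AT4G34950 encodes a protein of the major facilitator superfamily of transporters and had the largest ratio of 12 h to 0 h means in untreated seedlings. Its signals in untreated seedlings were 80.7 and 94.1 at 0 h, 601 and 510 at 3 h, and 3536 and 2981 at 12 h, or a mean of 87.4 ± 9.42, then 556 ± 64.7, then 3258 ± 393 (SD, n = 2 for each, as for all groups here). With 7606596 the signals were 731 and 677 at 3 h and 2684 and 3156 at 12 h, and with 5929745 they were 1110 and 1091 and then 3148 and 2187. All treated 3 h arrays were above the untreated 3 h arrays, and the treated and untreated 12 h arrays overlapped. From 3 h to 12 h it rose by 2.02 ± 0.16 (log2, SE) with 7606596 (limma adjusted p = 1.81e-08) and by 1.24 ± 0.16 with 5929745 (adjusted p = 9.61e-06). The difference between these rises was 0.78 ± 0.22 and was not called (limma adjusted p = 0.429).

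AT5G62720, an HPP family membrane protein, rose by 0.87 and 0.68 (log2) with 7606596 and 5929745, although the second call was lost without 1 of the 3 h arrays (limma adjusted p = 0.0527). AT2G16660, of the same transporter superfamily as AT4G34950, rose with 7606596 (0.75, limma adjusted p = 0.0102, lost without either of 2 arrays) and was not called with 5929745 (0.27, adjusted p = 0.365). The mitochondrial carrier AT3G20240 was called with neither, at 0.14 and -0.15. AT2G16660 and AT3G20240 were picked out after their values had been seen, as were AT4G30660, AT1G35550, AT3G53670, the RNA-linked genes other than NRPB12 and AT5G02860, and the lipid genes other than AT5G55450 below. The same holds for the list genes outside the starvation and auxin lists.

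Several named members encode small or stress-related proteins. AT4G16146, related to a cAMP-regulated phosphoprotein of animals, had untreated signals of 31.9 and 37.8 at 0 h, 134 and 79.0 at 3 h, and 851 and 944 at 12 h. With 7606596 it went from 118 and 125 to 716 and 813, and with 5929745 from 158 and 158 to 864 and 783. In both treated series the 12 h arrays were far above the 3 h arrays, by 2.50 ± 0.18 with 7606596 (limma adjusted p = 8.80e-09) and 2.27 ± 0.18 with 5929745 (adjusted p = 3.78e-08).

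AT4G30650 and AT4G30660, small membrane proteins of the low temperature and salt responsive family, are next to each other on the chromosome, with 0 protein-coding genes between them in the TAIR10.1 annotation. AT4G30650 was weak at first, with 1.72 and 26.0 at 0 h, and reached 233 and 252 in untreated seedlings at 12 h. With 7606596 its signals were 45.3 and 23.5 at 3 h and 161 and 403 at 12 h, and with 5929745 they were 32.6 and 50.7 and then 342 and 304. It rose by 2.47 ± 0.40 and 2.57 ± 0.40 (limma adjusted p = 0.000124 and 8.91e-05). Its neighbour AT4G30660 rose by 0.93 ± 0.16 with 7606596 (adjusted p = 0.000250) and 1.03 ± 0.16 with 5929745 (adjusted p = 9.45e-05).

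AT5G51440, a small heat shock protein of the HSP20-like family, had signals of 132 and 157 at 3 h and 257 and 518 at 12 h with 7606596, and of 79.4 and 85.6 and then 643 and 426 with 5929745. It rose with both, by 1.254 ± 0.26 (limma adjusted p = 0.00118) and 2.46 ± 0.26 (adjusted p = 1.13e-06). The difference between these rises was -1.20 and was not called (adjusted p = 0.495). AT3G62550, a universal stress protein-like gene, rose by 0.64 with 7606596 and 0.96 with 5929745. The 7606596 call was lost without 1 of the 12 h arrays (0.47, limma adjusted p = 0.0992).

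Enzymes of plastid starch breakdown rose. DPE1 had signals of 115 and 108, then 347 and 287, then 814 and 843 in untreated seedlings. With 7606596 they were 341 and 314 at 3 h and 787 and 833 at 12 h, and with 5929745 they were 381 and 345 and then 789 and 899. At both times the treated and untreated groups lay close together, and the rise was 1.27 ± 0.14 with 7606596 (limma adjusted p = 1.29e-06) and 1.18 ± 0.14 with 5929745 (adjusted p = 3.32e-06). PWD, the kinase that tags starch for breakdown and no member, rose by 2.53 and 2.11. These were the 2 genes of a list of 13 for starch breakdown that could be measured here, and DPE1 was the only member that any of the 10 lists held.

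Other members belong to cell wall, lipid and defence families. AT5G62360, of the invertase and pectin methylesterase inhibitor family, was at 191 and 180 at 3 h and 471 and 685 at 12 h with 7606596, and at 244 and 133 and then 954 and 596 with 5929745, rises of 1.54 and 1.97 (limma adjusted p = 0.000264 and 2.24e-05). AT2G43550, a knottin-type defensin-like protein, rose by 1.66 and 2.22, and the wax synthesis gene AT4G13840 by 0.84 and 0.94. AT5G55450, a lipid transfer protein, had log2 changes of 0.92 and 0.93 that just missed the threshold (limma adjusted p = 0.0517 and 0.0510) and passed it with an offset of 64, in a fit of the 8 treated arrays and with a replicate block. AT4G01130, a GDSL-type lipase or esterase, rose with 7606596 (0.85) and was not called with 5929745 (0.63, adjusted p = 0.111), and its first call was lost in 7 of 11 alternatives.

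Some members make, process or translate RNA. NRPB12, a small subunit of RNA polymerase, was at 706 and 792 at 3 h and 1131 and 1154 at 12 h with 7606596, and at 655 and 791 and then 932 and 1251 with 5929745. These are rises of 0.60 ± 0.14 (limma adjusted p = 0.00403) and 0.57 ± 0.14 (adjusted p = 0.00586), and the second was lost without either of 2 arrays. AT3G15460, of the Brix family of ribosome assembly proteins, rose by 1.11 and 0.94, and AT3G10530, a WD40 protein of the same process, by 0.92 and 0.90. AT3G21300, an RNA methyltransferase family protein, rose by 1.30 and 0.85, and AT4G26370, with a NusB antitermination domain, by 0.72 and 0.61. The AT3G10530 calls were lost with each compound without either of 2 arrays, and with 5929745 that of AT3G21300 without either of 2 and that of AT3G15460 without 1. AT5G02860, a pentatricopeptide repeat protein of the family that processes organelle RNA, rose by 0.94 and 1.31, the first being lost without 1 of the 3 h arrays (0.79, adjusted p = 0.0780).

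The ribosomal protein gene AT4G39200, of the S25 family, was below untreated seedlings at 3 h and 12 h with both compounds. Its untreated signals were 4421 and 5221 at 0 h, 6182 and 8834 at 3 h, and 13765 and 13183 at 12 h. With 7606596 they were 4433 and 4980 at 3 h and 5418 and 6135 at 12 h, and with 5929745 they were 4578 and 4431 and then 5348 and 8687. All 4 treated 3 h arrays lay below both untreated 3 h arrays. All 4 treated 12 h arrays lay below both untreated 12 h arrays, at 0.429 (7606596) and 0.521 (5929745) of the untreated mean. These untreated arrays helped to choose the gene, so the gaps are descriptions only. The change was 0.29 with 7606596 (limma adjusted p = 0.254) and 0.60 with 5929745 (adjusted p = 0.0194), and the latter was lost in 5 alternatives, with its lowest value, 0.25, when the brighter 12 h array was left out.

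Other named genes rose with both compounds. AT2G38465 had changes of 1.73 and 1.29, AT4G17140 of 1.54 and 1.37 and AT2G16710, an iron-sulphur cluster protein, of 1.20 and 0.85. AT5G53880 changed by 1.30 and 1.19, although the second was lost without 1 of the 3 h arrays (0.64, limma adjusted p = 0.0509). Its 12 h signals of 773 and 1292 with 7606596 and 939 and 1007 with 5929745 were below the untreated 1746 and 1776. Among probe sets with no gene named here, 251155_at showed the largest rise of the set, 3.68 ± 0.14 and 3.10 ± 0.14 (adjusted p = 1.13e-12 and 1.42e-11), from 624 and 517 to 8200 and 6833 with 7606596. 267364_at rose by 3.45 and 2.94.

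**Figure D3:**
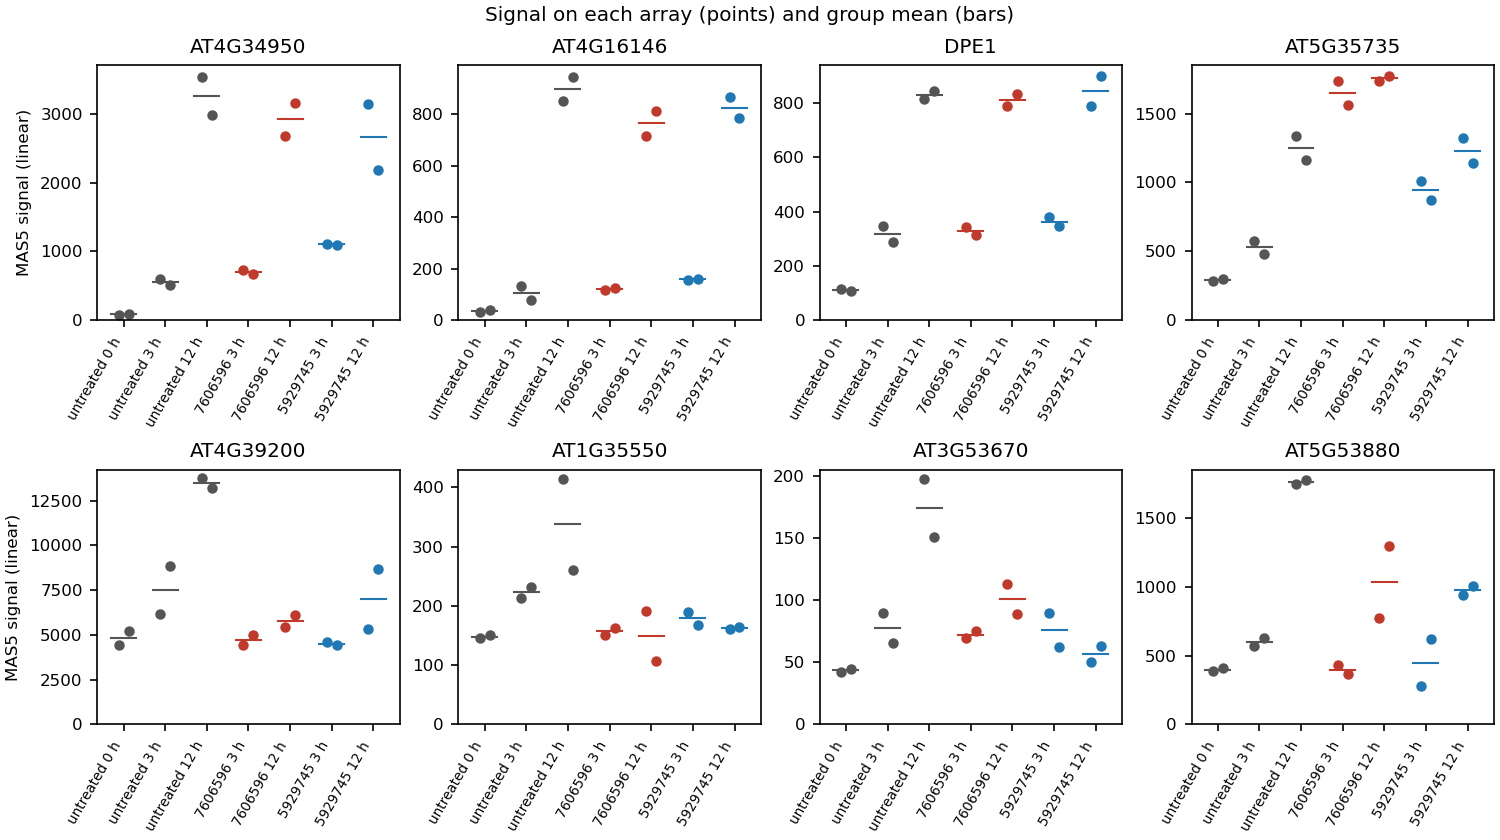
MAS5 signal (linear axis from 0) of 8 members on every array, with points for arrays, a short line at each group mean, grey for untreated seedlings, red for 7606596 and blue for 5929745. AT4G34950, AT4G16146 and DPE1 step up from 3 h to 12 h with both compounds, and in untreated seedlings by the rule. AT5G35735 is high with 7606596 already at 3 h. AT4G39200, AT1G35550, AT3G53670 and AT5G53880 have lower 12 h means with both compounds than in untreated seedlings.

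Some of the members that were not called had treated 12 h levels below the untreated ones. AT1G35550 was at 151 and 163 and then 191 and 107 with 7606596, and at 189 and 169 and then 161 and 164 with 5929745, against 415 and 261 in untreated seedlings at 12 h. Its changes were -0.11 (limma adjusted p = 0.759) and -0.12 (adjusted p = 0.739). AT3G53670 reached 113 and 89.2 with 7606596 and 50.2 and 63.2 with 5929745, against 198 and 151 untreated, with changes of 0.40 (adjusted p = 0.258) and -0.33 (adjusted p = 0.355). With AT4G39200 and AT5G53880, these were the 4 members whose 12 h mean was under 0.6 of the untreated mean with both compounds. The share of all probe sets under that limit is not given here. The rule chose members for high signals on the same untreated 12 h arrays, so this count is a description only. AT1G77600 just missed the threshold with 7606596 (0.65, adjusted p = 0.0550) and had 0.20 with 5929745 (adjusted p = 0.590), and it was called with 7606596 under 3 alternatives: an offset of 64, the 8 treated arrays alone and a replicate block.

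Others were already high at 3 h with 7606596. AT5G35735 was at 1739 and 1564 at 3 h and 1740 and 1777 at 12 h with 7606596, against 577 and 481 and then 1337 and 1165 in untreated seedlings. With 5929745 it was at 1012 and 874 and then 1323 and 1140. The change was 0.09 with 7606596 (limma adjusted p = 0.664) and 0.38 with 5929745 (adjusted p = 0.0411, lost in 4 alternatives). 246481_s_at, a probe set that matches several genes, was at 2319 and 2016 at 3 h and 1887 and 1764 at 12 h with 7606596, and at 863 and 870 and then 1978 and 2832 with 5929745. Untreated seedlings had 761 and 915 and then 1461 and 1509. It rose with 5929745 by 1.43 ± 0.15 (limma adjusted p = 1.27e-06) and was not called with 7606596 (-0.24, adjusted p = 0.266).

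The compounds were then set against each other at the same dose and time, 2 pairs of groups in all, each adjusted over all probe sets tested. At 3 h, 3 members differed, or 2 higher and 1 lower with 7606596, where 0.917% of all probe sets were called. 246481_s_at was higher with 7606596 by 1.30 ± 0.15 (limma adjusted p = 5.35e-05) and AT5G35735 by 0.80 ± 0.13 (adjusted p = 0.00222), the latter lost without 1 array of either compound (0.72, adjusted p = 0.0592, and 0.70, adjusted p = 0.0788). 246550_at, with no gene named here, was lower with 7606596 by -0.67 ± 0.10 (adjusted p = 0.000684), at 2421 and 2572 against 4075 and 3879. AT4G34950 had a 3 h difference of -0.63 that missed the threshold (adjusted p = 0.0681, 95% interval -0.96 to -0.31).

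The median 3 h difference of the members, 7606596 minus 5929745, was -0.13, and that of all probe sets tested -0.02. It was below 0 in 63 members (69.2%), against 53.3% of all probe sets. The 25S ribosomal RNA signal also differed at that time, at 531 and 466 with 7606596 against 850 and 760 with 5929745, and its part in the median was not tested.

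At 12 h, 0 members were called different between the compounds by limma, where 0.848% of all probe sets were, and 10 had an unadjusted p under 0.05. At that share a set of 91 would hold hardly any calls. The shares of all probe sets with such unadjusted p-values, or with intervals as narrow as those below, are not given here. The median difference of the members was -0.02 (range -0.51 to 0.69). That median was above 0 without the first 7606596 array (0.03) or the first 5929745 array (0.02). The 95% interval of the difference lay within a 2-fold change in either direction for 85 of the 91, with a median margin of 0.371 (log2) to either side, and reached past 2-fold for the other 6. For AT4G34950 the interval was -0.18 to 0.48. The 3-to-12 h change itself differed between compounds in 1 member, 246481_s_at, by -1.68 ± 0.21 (limma adjusted p = 0.00210, or 0.0912 with no variance trend), where 0.0502% of all probe sets were called and 12 members had an unadjusted p under 0.05.

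**Figure D4:**
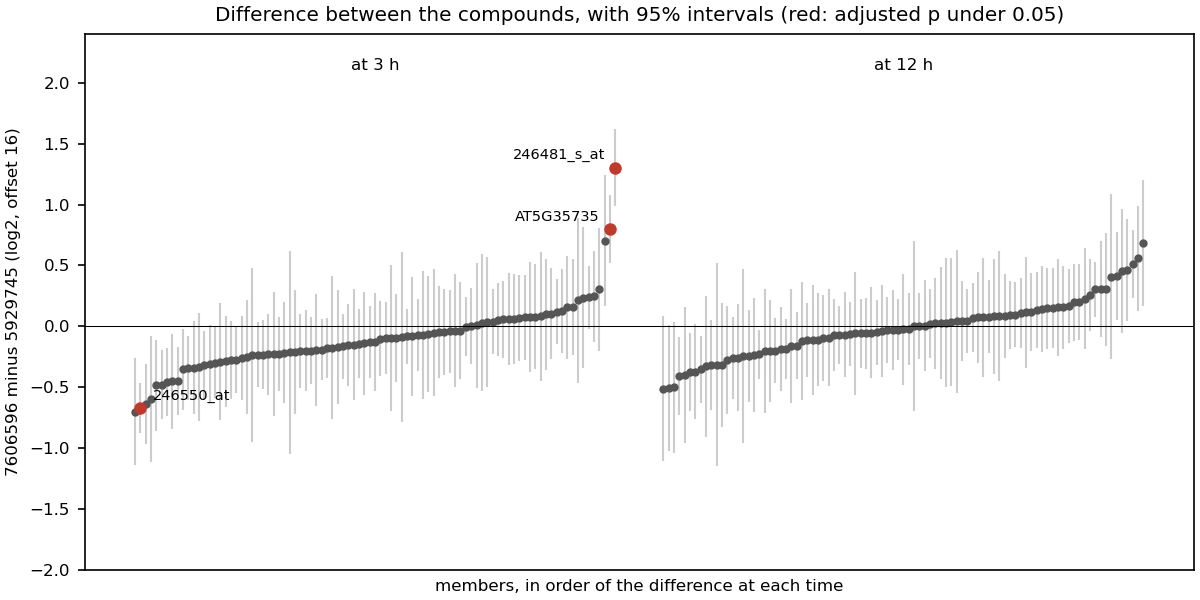
Difference between 7606596 and 5929745 (log2) for each member at 3 h and at 12 h, in order of size, with bars for 95% intervals and red for called members. At 3 h 3 members were called, with 2 higher and 1 lower with 7606596, and the members' median was -0.13. At 12 h 0 were called and the median was -0.02. Of all probe sets tested, 0.917% were called at 3 h and 0.848% at 12 h.

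Beside the untreated seedlings of the same time, the treated groups gave similar levels for most members. These ratios share the untreated arrays that chose the members and are descriptions only. At 12 h the treated mean was 0.429 to 1.45 times the untreated mean with 7606596 (median 0.896) and 0.325 to 1.62 times with 5929745 (median 0.918). With both compounds 64 of the 91 lay between 0.75 and 1.33 times. The share of all probe sets within these limits is not given here, so the count cannot show a trait particular to the members. At 3 h the ratios ran from 0.515 to 3.12 with 7606596 (median 0.940) and from 0.540 to 1.98 with 5929745 (median 1.005). The poly-A signals were higher on the untreated arrays of both times, and the hybridization control signals were lower on the untreated 12 h arrays. The part of these controls in the ratios was not tested.

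Other pathways that change over a day were read from fixed lists, which hold only the genes that the annotation names. Of 22 genes for dark and sugar starvation, 4 could be measured, and all 4 fell from 3 h to 12 h with both compounds, with medians of -0.46 (7606596) and -0.70 (5929745). AKINBETA1, a subunit of the energy-sensing SnRK1 kinase, fell by 0.56 and 0.72 on the log2 scale. ATL8, a ubiquitin ligase family gene, fell by 0.54 and 0.70, and IVD and MCCA, enzymes of branched-chain amino acid breakdown, by 0.39 and 0.71 and by 0.32 and 0.47. The IVD and MCCA calls with 7606596 were at adjusted p = 0.0374 and 0.0491 by limma and were lost under several alternatives, as was that of ATL8 without either of 2 arrays. The MCCA call with 5929745 was lost without either of 2 arrays (limma adjusted p = 0.105 and 0.0752). In untreated seedlings the same 4 were called lower at 12 h than at 3 h.

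Of 9 early auxin response genes 4 could be measured, and 3 fell with both compounds: IAA29, an auxin repressor, by 1.19 and 1.43, and GH3.3 and WES1, enzymes that conjugate auxin, by 0.95 and 1.16 and by 0.74 and 0.64. HAT2, a homeobox gene, had changes over time of -0.43 and 0.13 that were not called. At 12 h it was lower with 7606596 than with 5929745 by -1.14 ± 0.19 (limma adjusted p = 0.00573), with mean signals of 228 and 517. That call was lost without 1 of the 7606596 arrays (-1.01, adjusted p = 0.133) and with no variance trend (adjusted p = 0.0563). The 7606596 calls of IAA29 and GH3.3 were each lost without either of 2 arrays. A list of 14 clock genes had 2 measured and both rose, COR27 by 2.07 and 2.08 and AT4G33980 by 3.53 and 2.92. A further list of 12 clock genes had 1 measured, GI, which fell by 0.91 and 1.23. The hour of day at which these clock genes peak was not measured here. Of 6 aliphatic glucosinolate genes the 1 measured, BCAT4, was called lower at -1.004 and -0.99. These BCAT4 calls were lost in 6 and 8 of 11 alternatives. The nitrate, flavonoid, shade and cell cycle lists had 0 measured genes.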

How the data were processed

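Per the labels' protocols, total RNA of whole seedlings was prepared with a Qiagen kit and biotin-labelled for Affymetrix ATH1 arrays. The deposited values are signal intensity on a linear scale, made by the authors with MAS5, per the submitters' processing notes, which give no version; MAS5 summarises perfect match and mismatch probes and scales each array on its own. Detection calls were not used here. The 64 control probe sets were left out, and the filter kept the 15922 probe sets whose mean signal reached the 30th percentile, 42.3. Signals were taken to log2 after adding 16, so changes of weak probe sets are understated. One model with a mean for each of the 7 groups was fitted to the 14 arrays with limma 3.58.1 in R 4.3.3 (lmFit and eBayes with a variance trend, 7 residual and 11.4 prior degrees of freedom). Tests were two-sided, and p-values were adjusted by Benjamini-Hochberg over the kept probe sets.

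The members and lists were chosen with earlier results of these data known. Genes were named by a rule: AT4G34950, the steepest members and those of highest 12 h signal with a single gene, the largest called changes in each comparison, list members, and probe sets beside a threshold. Symbols come from the platform annotation and, for older names, from the TAIR10.1 table; 13513 probe sets have 1 gene, 503 several and 8730 none. Levels are not compared between probe sets. Promoter motifs were not analysed here. Replicate numbers in the labels did not pair arrays: the deviations of same-numbered arrays from their group means correlated at r -0.197 to 0.117 over 21 pairs of groups, above 0.1 in 1. Arrays of a group correlated at r 0.983 to 0.989 across probe sets, which are not independent replicates. The number of arrays limits the precision. Data were simulated for 7606596, 12 h minus 3 h, over 15922 probe sets. The fit found 38 of the 67 probe sets given a 1.5-fold change, 63 of the 67 given 2-fold and all 66 given 4-fold. Of its 175 calls, 8 were false. Far fewer probe sets were changed there than were called in the real comparison, so the adjusted threshold was stricter there. The simulated noise was normal, with a spread set only by the mean signal, whereas real probe sets of like signal differ in spread. The shares found therefore do not carry over to the real comparison. Alternatives were other offsets (1 and 64), no filter, quantile normalisation, the 8 treated arrays alone, a replicate block, no variance trend, other fold thresholds, and leaving out each array.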

Additional observations from a re-analysis of the deposited data

Results flagged for a closer look

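A single member was called in the test of the difference between the time changes with the compounds. The call was lost with no variance trend (limma adjusted p = 0.0912). For 246481_s_at, a probe set that matches several genes, the change from 3 h to 12 h with 7606596 minus that with 5929745 was -1.68 (log2, SE 0.21, limma adjusted p = 0.00210). The signals with 7606596 were 2319 and 2016 at 3 h and 1887 and 1764 at 12 h, and those with 5929745 were 863 and 870 and then 1978 and 2832.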

How the results depend on the processing

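The count of members that rose from 3 h to 12 h was 70 to 78 with 7606596 and 68 to 76 with 5929745 over the other settings, with 0 called lower in the reported fits. With a replicate block the counts were 77 and 75, which is within 1.5 times the reported 75 and 74. Leaving out an array in turn gave 65 to 69 and 62 to 74, where a lone array is assumed to vary like the other groups; 58 and 53 members were called in all 11 alternatives. The median change with 7606596 was 0.86 with an offset of 64 and 0.90 to 1.13 leaving out an array, and with 5929745 it was 0.76 with an offset of 64. The median difference of these changes between compounds was 0.048 to 0.20 leaving out an array, and its call for 246481_s_at was lost with no variance trend, which left 0 calls. The median 12 h difference between compounds was -0.10 to 0.03 leaving out an array, on both sides of 0. Steps of at least 2-fold would give 23 members, steps of at least 5/4 400, and quantile normalisation 78, of which 74 were among the 91. Over single genes, 0 called values reversed, 104 of the alternative values lost a call and 12 gained one. With 2 arrays a group, changes of 1.5-fold were often missed in the simulated data. The adjusted threshold was stricter there than in the real comparison and the simulated spread was simpler, so the share missed does not carry over.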
